A study of Homo sapiens with 6 samples.

Results

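The linker histone H1 genes are described here through 5 rows of a table of normalized mRNA levels. They are H1-1 (formerly HIST1H1A, ENST00000244573), H1-2 (HIST1H1C, ENST00000343677), H1-3 (HIST1H1D, ENST00000244534), H1-4 (HIST1H1E, ENST00000304218) and H1-5 (HIST1H1B, ENST00000331442). The rows were fixed by identifier, and they were chosen with earlier results of these data known. All 5 were present among the 102731 transcripts of the table, and 0 were absent. The levels were measured in PC3, an established human line of prostate cancer cells labelled docetaxel sensitive, and in PC3-DR, a derivative of PC3 labelled docetaxel resistant, with 3 libraries each. Docetaxel, a taxane drug, keeps microtubules from disassembling and so arrests dividing cells in mitosis. PC3-DR was obtained by exposure for 48 h to 4 and 8 nM in 5 cycles and to 8 and 12 nM in 12 cycles, followed by doses raised from 10 nM in steps of 5 nM to 50 nM. PC3-DR was then kept in 40 nM docetaxel for 1 month. Both lines grew in the same medium with serum, and the labels name 1 resistant derivative without saying whether it is a clone. Whether the libraries of a line came from separate cultures is not stated, so p-values measure only the spread between these libraries, which may be technical.

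H1 proteins bind the nucleosome where the DNA enters and leaves, and their lysine-rich tails help to pack chromatin into higher order structures. The 5 genes belong to the histone gene cluster of chromosome 6 and are replication-dependent, since their mRNA is made mainly in S phase together with core histone mRNA. Their mRNAs have no intron and normally end in a stem-loop, bound by the protein SLBP, in place of a poly(A) tail. Their promoters carry a cytosine- and adenine-rich element typical of H1 genes, called the H1 box, upstream of a CCAAT box and a TATA box. The labels name total RNA and a standard library protocol, and do not say whether poly(A) RNA was selected, a step that would remove most stem-loop mRNA. In bulk libraries such as these, fewer cells in S phase and less H1 mRNA per cell cannot be told apart.

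The promoters of the 5 genes were compared after the levels had been seen. H1-1 was highest in PC3 replicate 2 and lowest in PC3-DR replicate 1, unlike the other members. The other members had no highest or lowest library common to all of them. A link between promoter and level was not tested. The windows below run 5′ to 3′ from base -195 to base -16 before the gene start, as RefSeq gives it on GRCh38.p14. All 5 symbols matched a promoter of that table. The windows lie at chr6:26017803-26017982 (minus strand) for H1-1, chr6:26056486-26056665 (minus strand) for H1-2, chr6:26235003-26235182 (minus strand) for H1-3, chr6:26156134-26156313 (plus strand) for H1-4 and chr6:27867604-27867783 (minus strand) for H1-5. Capitals mark the H1 box (AAACACA), the CCAAT box (CCAAT) and the TATA box (TATANA), each searched on both strands, so that a capital run can hold overlapping TATA matches.
H1-1: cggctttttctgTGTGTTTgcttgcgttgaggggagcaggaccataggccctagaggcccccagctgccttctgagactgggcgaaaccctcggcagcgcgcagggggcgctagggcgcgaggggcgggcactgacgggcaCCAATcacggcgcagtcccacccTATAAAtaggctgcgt
H1-2: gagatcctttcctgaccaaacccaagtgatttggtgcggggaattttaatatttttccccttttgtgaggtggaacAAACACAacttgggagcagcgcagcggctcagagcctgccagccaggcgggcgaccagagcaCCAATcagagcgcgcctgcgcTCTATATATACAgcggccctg
H1-3: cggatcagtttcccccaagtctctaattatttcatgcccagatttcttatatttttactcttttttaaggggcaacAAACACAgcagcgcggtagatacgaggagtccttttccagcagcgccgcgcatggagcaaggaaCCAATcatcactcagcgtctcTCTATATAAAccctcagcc
H1-4: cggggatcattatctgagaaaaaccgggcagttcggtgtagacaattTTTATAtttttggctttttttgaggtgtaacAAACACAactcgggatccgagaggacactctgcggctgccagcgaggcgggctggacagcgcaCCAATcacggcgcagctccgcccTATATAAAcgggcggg
H1-5: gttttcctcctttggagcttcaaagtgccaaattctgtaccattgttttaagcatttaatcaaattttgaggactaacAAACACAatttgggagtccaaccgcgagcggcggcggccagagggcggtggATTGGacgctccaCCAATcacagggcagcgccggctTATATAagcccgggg

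All 5 promoters, read over 250 bases before and 50 bases after the start, held each of the 3 motifs. The H1 box letters occurred in 5.64% of 35116 promoters of the same length, CCAAT in 34.6%, TATANA in 19.0% and all 3 motifs in 0.752%. The forward H1 box began at base -119 in H1-2 and H1-3 and at base -117 in H1-4 and H1-5. In H1-1 the only match lay on the reverse strand, from base -183 to base -177. More distant matches also occurred in H1-2, on the reverse strand from base -242, and in H1-5, on the forward strand from base -226. A forward H1 box within bases -120 to -110 was found in 21 of the 35116 promoters, or 0.0598%, and H1-2, H1-3, H1-4 and H1-5 were 4 of the 21. This position was picked after the sequences were seen. The forward CCAAT box was placed alike in all 5 genes, beginning between base -57 in H1-2 and base -53 in H1-5. These matches describe letters in a window, and the libraries hold no measurement of binding or of promoter activity.

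**Figure D1:**
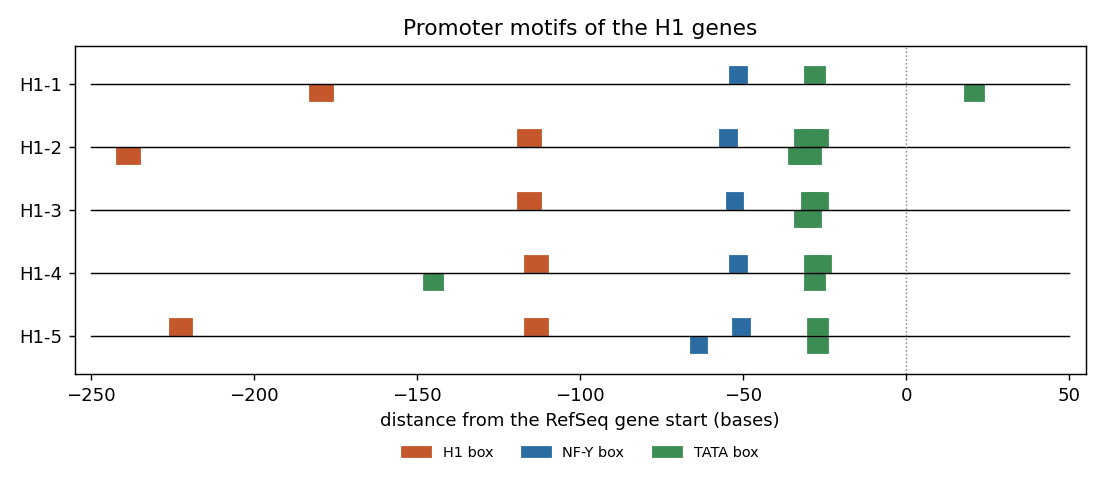
Motif matches in the promoters of the 5 H1 genes against distance in bases from the RefSeq gene start (dotted line). Blocks above a line are forward matches and blocks below it reverse matches of the H1 box, the NF-Y box (the CCAAT motif) and the TATA box. H1-2 to H1-5 share a forward H1 box beginning at base -119 or -117, whereas the match of H1-1 lies on the reverse strand at base -183.

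Levels were taken as FPKM, a read number per kilobase of transcript and scaled to a library total. The totals read off the values lay between 14411000 and 16186000 in 5 libraries and at 43153000 in PC3-DR replicate 1. That library stood apart: 14943 transcripts reached 1 FPKM in it, against between 22650 and 29399 in the other 5. Its median over the 24937 tested transcripts was 0.676 FPKM, against between 1.32 and 1.67 FPKM elsewhere. Group means and differences below are therefore also given without it or after rescaling the libraries by the median of ratios. PC3 replicate 3 was unusual in another way, since zeros were most frequent there. They made up 48.3% of all its rows and 15.1% of its tested transcripts. The next highest shares were 37.7% of all rows, for PC3 replicate 2, and 13.9% of tested transcripts, for PC3-DR replicate 1. Results without PC3 replicate 3 are given below where leaving it out changed their direction. The tables list identifiers without gene names, so markers of PC3, core histones, SLBP and other S phase genes were not analysed here.

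The read numbers behind the H1 levels were small. Transcript lengths read off the values were 648 nt for H1-1, 642 nt for H1-2, 666 nt for H1-3, 754 nt for H1-4 and 681 nt for H1-5. RefSeq lists longer genes, from 731 nt for H1-2 to 797 nt for H1-5, so the deposited levels need not cover the whole mRNA. Leaving PC3-DR replicate 1 aside, single H1 levels rested on between 4 and 81 reads. In that library they rested on between 0 and 278 reads. Intervals given for single libraries are exact 95% Poisson intervals of these reads, with a limit of 3 reads where 0 were counted, and cover counting error only. H1 coding sequences resemble each other, and how reads that fit several H1 genes were assigned is not given in the sources used here, so levels of single H1 genes are uncertain to that extent.

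H1-2, one of the most widely expressed H1 subtypes and one that can also act in apoptotic signalling after DNA breaks, had the highest mean of the 5 in each line. PC3 replicates 1 to 3 listed it at 7.79, 4.26 and 2.38 FPKM, and PC3-DR replicates 1 to 3 listed it at 10.0, 3.89 and 4.29 FPKM. PC3-DR replicate 1 was the highest library and PC3 replicate 3 the lowest, and the other PC3-DR libraries lay among those of PC3. In PC3 replicate 1 its level stood above 99.6% of all rows of the table and above 98.4% of tested transcripts. In PC3 replicate 3, where 48.3% of all rows stood at 0, these shares were 95.5% and 84.0%. H1-2 exceeded H1-3 and H1-5 in 6 of 6 libraries, and H1-1 and H1-4 in 5 of 6. Group means were 4.81 ± 2.75 FPKM for PC3 against 6.07 ± 3.44 FPKM for PC3-DR (SD, n = 3 each). Without PC3-DR replicate 1 the PC3-DR mean was 4.09 FPKM.

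H1-4, a widely expressed subtype whose methylated tail can be bound by the heterochromatin protein HP1, had the second highest mean in PC3-DR and, behind H1-1, the third highest in PC3. Its values in PC3 replicates 1 to 3 were 3.69, 2.36 and 1.20 FPKM, and those in PC3-DR replicates 1 to 3 were 5.84, 1.99 and 6.71 FPKM. PC3-DR replicates 1 and 3 lay above every PC3 library, and PC3-DR replicate 2 lay between PC3 replicates 2 and 3, so the groups overlapped. The counting intervals of PC3-DR replicates 1 and 3, from 5.04 to 6.73 and from 5.31 to 8.36 FPKM, did not reach that of the highest PC3 library, from 2.69 to 4.93 FPKM. The interval of PC3-DR replicate 2, from 1.27 to 2.95 FPKM, lay below those of PC3-DR replicates 1 and 3. Group means were 2.41 ± 1.25 FPKM for PC3 against 4.85 ± 2.51 FPKM for PC3-DR (SD, n = 3 each), a ratio of 2.01, or of 1.80 without PC3-DR replicate 1.

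H1-1, an H1 subtype whose expression is more restricted to certain tissues than that of the other four, was the member in which the groups did not overlap. Its PC3 values were 2.38, 3.90 and 2.57 FPKM for replicates 1 to 3, and those of PC3-DR replicates 2 and 3 were 0.963 and 2.08 FPKM. PC3-DR replicate 1 listed it at 0, which at its total allows up to 0.107 FPKM (3 reads). All 3 PC3-DR values thus lay below all 3 PC3 values, but PC3-DR replicate 3 came close to PC3 replicate 1, and their counting intervals, from 1.28 to 3.17 and from 1.54 to 3.52 FPKM, overlapped. Group means were 2.95 ± 0.83 FPKM for PC3 against 1.01 ± 1.04 FPKM for PC3-DR (SD, n = 3 each), a ratio of 0.343, or of 0.515 without PC3-DR replicate 1. Of the 24937 tested transcripts, 6.97% lay lower in every PC3-DR library than in every PC3 library, and H1-1 was 1 of 5 members to do so. Higher in every PC3-DR library were 4.11% of tested transcripts and 0 of 5 members. After rescaling by the median of ratios, 5.65% and again H1-1 alone lay lower. In PC3-DR replicate 1, where H1-1 stood at 0, the other members lay between 2.55 and 10.0 FPKM. In that library 13.9% of tested transcripts stood at 0, so a 0 there is not particular to H1-1.

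H1-3 and H1-5, also replication-dependent subtypes found in most dividing cells, had means that differed between the lines by less than their SDs. For H1-3 the PC3 libraries gave 2.88, 2.57 and 1.35 FPKM (replicates 1 to 3), and the PC3-DR libraries gave 3.38, 1.12 and 1.92 FPKM in the same order. The highest and the lowest library were both PC3-DR, and the PC3 values fell between them. Its group means were 2.27 ± 0.80 FPKM for PC3 against 2.14 ± 1.14 FPKM for PC3-DR (SD, n = 3 each), or 1.52 FPKM without PC3-DR replicate 1.

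H1-5, which can help the homeobox protein MSX1 to repress muscle genes, had the largest spread relative to its mean in PC3. Its values there were 3.72, 1.10 and 0.408 FPKM in replicates 1 to 3, resting on 41, 11 and 4 reads. The PC3-DR values of 2.55, 1.28 and 1.98 FPKM all lay inside the range of PC3. Group means were 1.74 ± 1.75 FPKM for PC3 against 1.94 ± 0.64 FPKM for PC3-DR (SD, n = 3 each), or 1.63 FPKM without PC3-DR replicate 1.

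**Figure D2:**
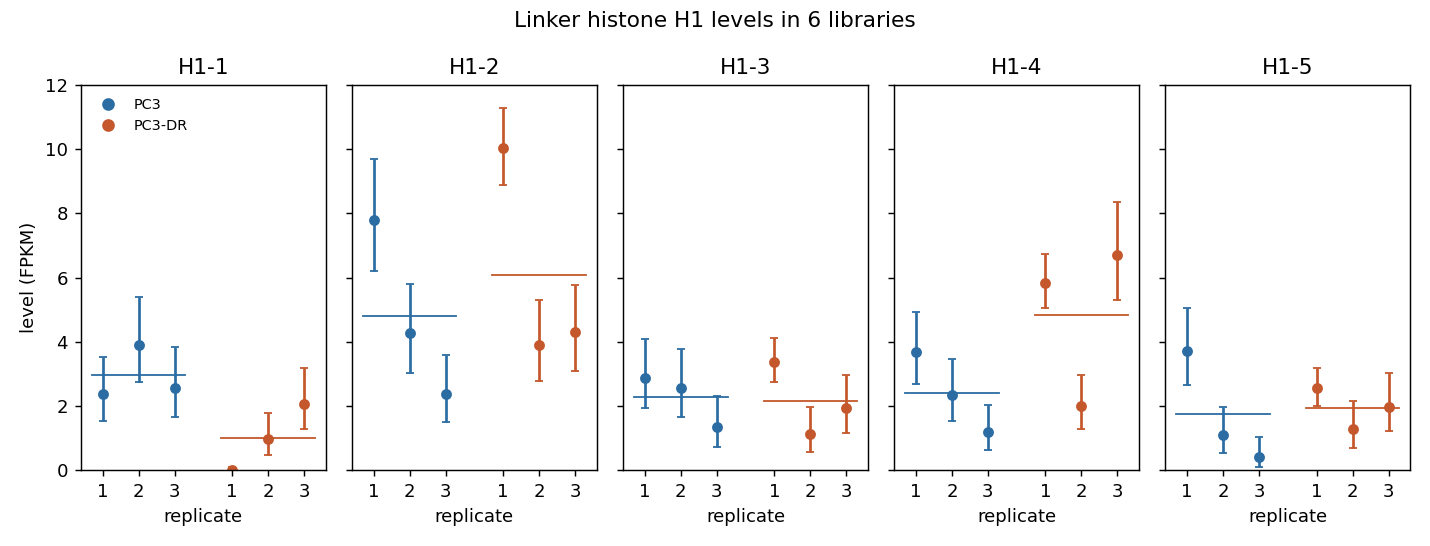
Level of each H1 gene in FPKM (linear axis) in the 3 PC3 and 3 PC3-DR libraries; points are libraries, bars are exact 95% Poisson intervals of the reads (up to 3 reads where 0 were counted), and horizontal lines are group means. In H1-1 the PC3-DR points, at 0 to 2.08 FPKM, lie below the PC3 points, at 2.38 to 3.90 FPKM, and in the other four genes the groups overlap.

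With all 3 libraries of a line, the coefficient of variation of each H1 gene lay above the value expected from read numbers alone. Whether the excess is beyond sampling was not tested. For H1-2 the coefficient of variation was 57.2% in PC3 and 56.7% in PC3-DR, whereas counting error would give 14.5% and 10.3%. The PC3-DR value rested on replicate 1, since replicates 2 and 3 alone gave 6.98%, below their counting error of 15.5%. In the remaining genes, PC3-DR replicates 2 and 3 alone gave values above counting error, from 30.1% against 23.9% in H1-5 to 76.8% against 13.9% in H1-4. Only in H1-4 did the counting intervals of these replicates lie apart. They overlapped in H1-1, H1-3 and H1-5, so an excess is not shown there. For H1-5 in PC3 the coefficient of variation was 100.1% against 23.2%. H1-1 in PC3 varied by 28.1% against 18.7%. In PC3, replicate 1 was highest and replicate 3 lowest for H1-2, H1-3, H1-4 and H1-5, that is for 4 of 5 members, while H1-1 was highest in replicate 2. PC3 replicate 3 also had the lowest median over tested transcripts of the PC3 libraries, 1.32 FPKM. In PC3-DR, replicate 2 was lowest for the same 4 members, and H1-1 was lowest in replicate 1. For H1-2 this rested on 40 reads against 43 in replicate 3. How many of all tested transcripts follow these orders was not counted.

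The order of mean levels differed between the lines. In PC3, H1-2 with 4.81 FPKM was followed by H1-1 with 2.95, H1-4 with 2.41, H1-3 with 2.27 and H1-5 with 1.74 FPKM. In PC3-DR, H1-2 with 6.07 FPKM was followed by H1-4 with 4.85, H1-3 with 2.14, H1-5 with 1.94 and H1-1 with 1.01 FPKM. Without PC3-DR replicate 1, H1-4 with 4.35 FPKM stood ahead of H1-2 with 4.09 FPKM in PC3-DR, and H1-5, H1-3 and H1-1 lay between 1.52 and 1.63 FPKM. These levels are per transcript length, which lets genes be compared. With all libraries, neighbours in the order of either line lay apart by less than the larger of their SDs, except H1-4 and H1-3 in PC3-DR. By the smaller SD, H1-2 and H1-1 in PC3 and H1-5 and H1-1 in PC3-DR lay further apart as well. H1-4 exceeded H1-3 in all 3 PC3-DR libraries but in 1 of 3 PC3 libraries. H1-3 exceeded H1-1 in 3 of 6 libraries and H1-1 exceeded H1-5 in 3 of 6, so the order of these 3 over both lines was not resolved.

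The make-up of the H1 signal was compared within libraries, where a common scale cancels out. The share of H1-4 in the summed FPKM of the 5 rows was 18.02%, 16.6% and 15.1% in PC3 replicates 1 to 3 and 26.8%, 21.5% and 39.5% in PC3-DR replicates 1 to 3. The groups did not overlap in this share, and they overlapped in the shares of the other genes. The nearest libraries, PC3 replicate 1 and PC3-DR replicate 2, rested on 45 of 223 and 24 of 100 H1 reads. No counting interval was formed for a share, so the gap between them is not shown to exceed counting error. The shares of a library add up to the whole, so a low H1-1 share raises the others. Shares of chosen rows have no test and no background over all transcripts, and for levels 11.1% of tested transcripts had groups that did not overlap in either direction. H1-1 made up 11.6%, 27.5% and 32.5% in PC3 and 0%, 10.4% and 12.2% in PC3-DR, so that PC3 replicate 1 lay inside the range of PC3-DR. H1-2 led in 4 of 6 libraries, H1-1 in PC3 replicate 3 and H1-4 in PC3-DR replicate 3. H1-3 held between 11.3% and 18.1% and H1-5 between 5.16% and 18.2% over the 6 libraries.

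**Figure D3:**
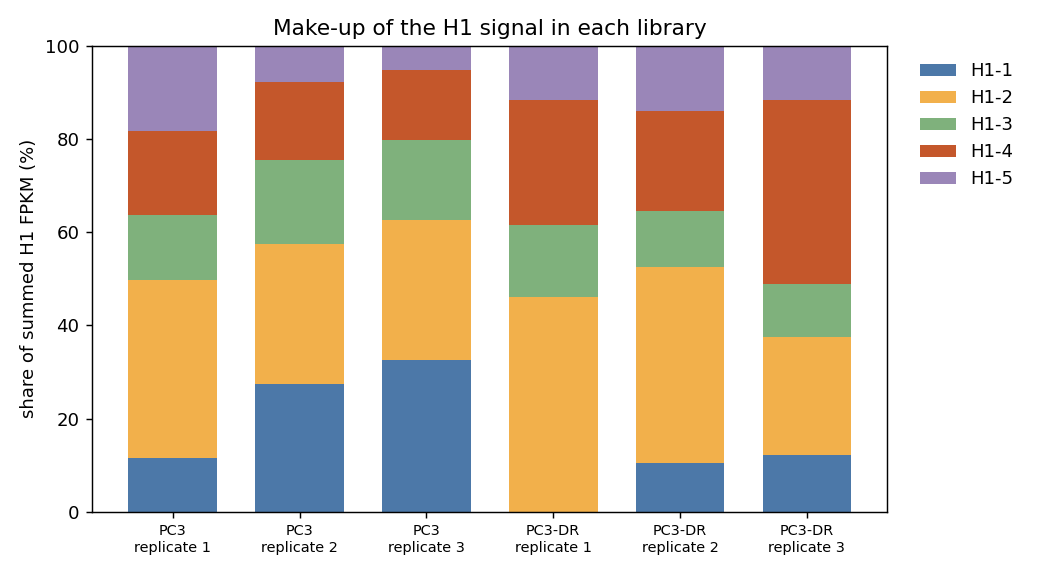
Share of each H1 gene in the summed H1 FPKM of each library, in percent (stacked bars from 0 to 100). The H1-4 segment spans 15.1% to 18.02% in PC3 and 21.5% to 39.5% in PC3-DR, and the H1-1 segment is 0% in PC3-DR replicate 1.

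Summed over the 5 rows, PC3 replicates 1 to 3 held 20.5, 14.2 and 7.91 FPKM of H1 and PC3-DR replicates 1 to 3 held 21.8, 9.24 and 16.98 FPKM. The groups overlapped throughout, with means of 14.2 ± 6.28 FPKM for PC3 against 16.01 ± 6.34 FPKM for PC3-DR (SD, n = 3 each). The ratio of PC3-DR to PC3 was 1.13 as deposited, 1.65 after rescaling by the median of ratios and 0.924 without either PC3-DR replicate 1 or PC3 replicate 3. After rescaling, PC3-DR replicate 1 stood at 36.9 FPKM, and the other 5 libraries lay between 7.33 and 17.4 FPKM. The direction of the summed H1 signal thus turned with single libraries.

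The comparison asked which mRNAs differ between PC3-DR and PC3, where resistance cannot be told apart from the exposure to docetaxel. All 5 H1 rows passed the filter, set at 1 FPKM or more in 3 or more of the 6 libraries, which H1-1 met through its PC3 values and PC3-DR replicate 3. None of the 5 passed limma's test on log2(FPKM + 1) at a Benjamini-Hochberg adjusted p under 0.05, a threshold that 0.00401% of the 24937 tested transcripts passed. At an unadjusted p under 0.05, 1 of 5 members, H1-1, was reached, as were 6.10% of all tested transcripts in either direction and 3.64% with a lower level in PC3-DR. By limma's voom on recovered reads, chosen after seeing the data, 0 of 5 passed.

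The H1-1 difference, PC3-DR minus PC3 on the log2(FPKM + 1) scale, was -1.10 ± 0.45 (SE) with a 95% interval from -2.09 to -0.10 and an adjusted p of 0.786 in limma. It was lower than that of all but 2.15% of tested transcripts. The value was -0.67 without PC3-DR replicate 1, with an interval from -1.48 to 0.15 (adjusted p = 0.996 in limma). For H1-4 the difference was 0.73 ± 0.47 (SE), with an interval from -0.31 to 1.77 and an adjusted p of 0.884 in limma, and 7.06% of tested transcripts had a higher one. The H1-4 difference was 0.56 without PC3-DR replicate 1 and 0.99 with the median of ratios. Over single left-out libraries it lay between 0.44, without PC3 replicate 3, and 1.16, without PC3-DR replicate 2, the library low in H1-4. The adjusted p at 1.16 was 0.696 in limma. Both members kept their sign under each rescaling and each left-out library. The upper limit of the H1-1 interval was also positive without PC3 replicate 2 (0.22), PC3 replicate 3 (0.01) or PC3-DR replicate 2 (0.06). It stayed negative without PC3 replicate 1 or PC3-DR replicate 3.

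For H1-2 the log2 difference was 0.29, with an interval from -0.77 to 1.35 (adjusted p = 0.919 in limma). It was -0.08 without PC3-DR replicate 1 and -0.05 without PC3 replicate 3. H1-5 differed by 0.26, with an interval from -0.78 to 1.30 (adjusted p = 0.923 in limma), by 0.11 without PC3-DR replicate 1 and by -0.13 without PC3 replicate 3. H1-3 differed by -0.09, with an interval from -0.97 to 0.80 (adjusted p = 0.966 in limma), by -0.36 without PC3-DR replicate 1 and by 0.19 after rescaling by the median of ratios. It was also above 0 without PC3 replicate 1, at 0.05, and without PC3-DR replicate 2, at 0.16. These 3 genes therefore had no settled direction, and their intervals do not show that the lines are alike in them.

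**Figure D4:**
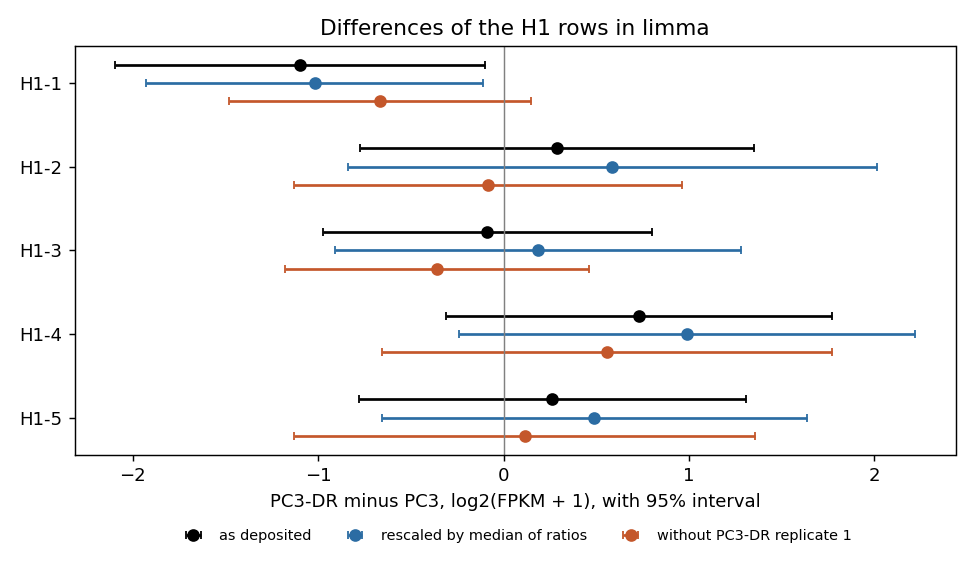
Difference between PC3-DR and PC3 of each H1 gene in limma, in log2(FPKM + 1), with 95% intervals, as deposited (black), after rescaling by the median of ratios (blue) and without PC3-DR replicate 1 (orange). The black interval of H1-1, from -2.09 to -0.10, lies below 0 before adjustment for multiple tests, and those of the other four genes span 0.

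Over the 5 members the median log2 difference was 0.26, with 3 above 0 and 2 below. Over all tested transcripts it was -0.13, and 39.9% were above 0. Rescaling by the median of ratios moved this overall median to 0.05. The H1 rows thus lay on both sides of the distribution of all transcripts.

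**Figure D5:**
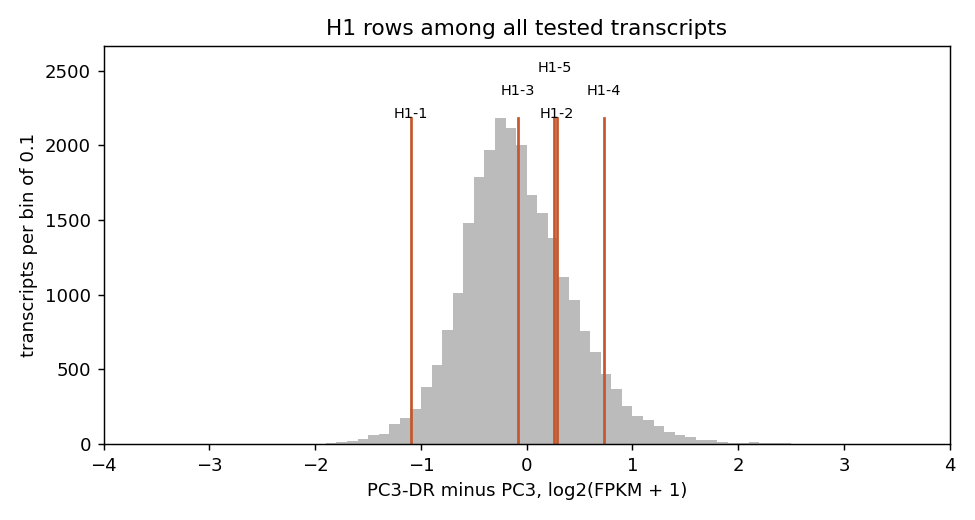
Number of tested transcripts per bin of 0.1 in the difference between PC3-DR and PC3, in log2(FPKM + 1), with vertical lines at the 5 H1 genes. H1-1 at -1.10 lies in the lower tail, H1-4 at 0.73 in the upper part, and H1-3, H1-5 and H1-2 lie between -0.09 and 0.29 in the bulk.

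The 2 tested transcripts whose pattern was most like that of the summed H1 level were ENST00000586443 and ENST00000468598, with Pearson correlations of 0.9963 and 0.9931 in log2(FPKM + 1) over the 6 libraries, and of 0.9966 and 0.9908 without PC3-DR replicate 1. For ENST00000586443 the PC3 libraries gave 5.20, 3.56 and 1.78 FPKM, and the PC3-DR libraries 5.16, 2.00 and 4.03 FPKM. For ENST00000468598 these values were 3.36, 1.23 and 0 FPKM, then 3.74, 0.462 and 2.06 FPKM. Both were high in PC3 replicate 1 and PC3-DR replicate 1 and low in PC3 replicate 3 and PC3-DR replicate 2, as the summed H1 level was. They were picked from 24932 transcripts measured in the same libraries, of which 295, or 1.18%, reached a correlation of 0.9, so the likeness describes the pattern only.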

How the data were processed

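RNA of 3 PC3 and 3 PC3-DR libraries was measured. The deposited mRNA table gives values per transcript, and no header or label names their unit. They were taken as FPKM because 99.98% of transcripts above 0 in at least 3 libraries gave whole reads, within 0.08 of a read, for a length between 200 and 60000 nt and 1 total per library. Other values per transcript length with 1 scale per library would pass this check too, so FPKM and the totals are inferred. Whether the totals count reads or fragments is open. The authors made these FPKM values, per the submitters' processing notes, with tools that include the aligners HISAT2 and TopHat2, the assembler StringTie, the counter featureCounts, and DESeq and limma, whose versions and roles are not stated. They name the build mm9 although identifiers are human, so coordinates come only from RefSeq promoters. Columns were matched to samples by title. No 2 libraries shared more than 0.00204% of their values.

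Transcripts reaching 1 FPKM in 3 or more libraries were tested with limma 3.58.1 (R 4.3.3) on log2(FPKM + 1), with trend, two-sided, over the whole table, with Benjamini-Hochberg adjustment. This scale understates differences of low transcripts. The limma and read-recovery steps were also run on simulated data, with outcomes not given here, so the size of difference limma could find is not shown. The rule for named genes took all 5 members and the 2 transcripts with the highest Pearson correlation with the summed H1 level. Lists of core histones, histone mRNA factors, H1 chaperones, S phase genes and cell markers could not be matched. Alternatives varied pseudocount, filter, scaling, trend, replicate block and libraries. Members and lists were chosen with earlier results of these data known. Python 3.11.15, NumPy 2.4.6, pandas 2.3.3, SciPy 1.17.1 and matplotlib 3.10.9 were used.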

Additional observations from a re-analysis of the deposited data

How the results depend on the processing

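In limma 1 transcript of the mRNA table passed, and it was no H1 row. The count was 0 under the median of ratios, without the trend, without a filter, with a filter of 5 FPKM, with either pseudocount (0.1 and 5), and under voom on recovered reads or the median of ratios without PC3-DR replicate 1, the last pair chosen after seeing the data. Quantile normalization gave 1, with 1711 at an unadjusted p below 0.05. In the fits with 0 between 57 and 3008 transcripts had an unadjusted p below 0.05. Leaving out single libraries gave between 0 and 1. No H1 row passed the filter of 5 FPKM, so that fit gave no H1 value. In the other 15 alternatives none of the 5 H1 rows passed, and the lowest adjusted p was 0.503 for H1-1 without PC3-DR replicate 3. H1-1 lay between -3.64 (voom, on the log2 count scale) and -0.41 (pseudocount 5), and H1-4 between 0.39 and 1.16.

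Signs turned for 3 members. H1-2, at 0.29, lay between -0.0832 and 0.64 with single libraries left out, and was -0.0831 with the median of ratios without PC3-DR replicate 1. H1-3, at -0.09, lay between -0.36 and 0.16 with single libraries left out, and was 0.19 with the median of ratios and 0.14 with voom. H1-5, at 0.26, lay between -0.13 and 0.75 with single libraries left out. The cause was not tested. The summed H1 ratio lay between 0.923 and 1.65, against 1.13 as deposited. A spread of 0.670 around it was formed from the SDs between libraries of each line. That spread is not the error of a ratio of means, so it does not show that the ratio is stable.

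Replicate numbers did not clearly pair the libraries, since the deviations of libraries with the same number had correlations of 0.192, -0.0039 and 0.093. With a replicate block in limma the count was 0, with 1707 at an unadjusted p below 0.05, and H1-1 had an adjusted p of 0.691.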
